A study of Mus musculus with 25 samples.

Results

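The wide H3K27me3 domains of fibroblast line A were the peaks of the deposited line A list that spanned more than 10000 bp. There were 5646 of them, 6.55% of the 86235 line A peaks, out of 213014 peaks in the 3 lists of the study. They were chosen by width alone, so their widths are described without a test. Together they covered 105.1 Mb, which was 38.1% of the 276.2 Mb under all line A peaks.

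The study profiled H3K27me3 in 3 mouse cell systems to ask how Polycomb target genes keep a memory of their transcriptional state. Line A (C2) and line B (C26) are lines of mouse embryonic fibroblasts immortalized with c-myc, and each gave 6 ChIP-seq libraries with antibody clone C36B11. In line A these were 2 libraries each of wild-type cells, of Ezh2-/- cells and of Ezh2-/- cells that carry a retroviral pMSCV-Ezh2. In line B they were 2 each of wild-type cells, of Ezh2-/- cells whose loss is labelled reversible, and of cells with endogenous Ezh2 rescue. Wild-type neural progenitor cells of embryonic stem cell origin (NPC) gave 6 libraries by CUT&RUN, which releases marked chromatin from permeabilized cells with a nuclease. They were untreated, treated with 2 PRC2 inhibitors, 2 uM UNC1999 and 4 uM A395, or taken after washout of both, with 2 libraries each. A further 7 libraries of line A, of other chromatin features and an input, were not used.

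Each cell system had 1 peak list, which holds positions only. The name of the line A list joins those of its wild-type and Ezh2-/- libraries. The name of the line B list joins a plain C26 label with a C26 label that carries Ezh2, so the fibroblast lists may rest on different genotypes. No label states which libraries entered the calls. No value could therefore be given per library, there was no spread between replicates, and no test was made. Each line is a single immortalized line, so line and cell type cannot be told apart. NPC differed from the lines in cell type, growth medium and assay together. The lists held no peak on a sex chromosome, and the percentages below refer to the 19 autosomes. A stretch without a peak may hold H3K27me3 below the calling threshold, and the depth of the libraries is unknown.

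H3K27me3 is trimethylation of lysine 27 of histone H3. Polycomb repressive complex 2 (PRC2), with Ezh2 or Ezh1 as its catalytic subunit, places it, and its Eed subunit binds the mark and helps the complex to extend it along chromatin. In differentiated cells the mark lies over silent genes of other lineages, among them the Hox clusters and many developmental transcription factors, and PRC2 is commonly found at promoters rich in unmethylated CG dinucleotides.

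The promoters below are shown because they differ in CG content and in sharing between cell systems, among genes whose start lay in a wide domain. Each is the 300-base RefSeq window (GRCm38.p6, 250 bases before to 50 after the start, 5′ to 3′ on the strand of the gene), with every CG in capitals.
Olig2, chr16:91225300-91225599, plus strand: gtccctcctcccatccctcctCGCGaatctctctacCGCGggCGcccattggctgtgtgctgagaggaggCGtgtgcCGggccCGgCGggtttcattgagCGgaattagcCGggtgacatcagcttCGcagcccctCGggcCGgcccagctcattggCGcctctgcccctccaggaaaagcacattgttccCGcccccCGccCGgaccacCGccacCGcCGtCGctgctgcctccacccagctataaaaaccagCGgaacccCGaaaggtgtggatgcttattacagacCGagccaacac
Neurog2, chr3:127632886-127633185, plus strand: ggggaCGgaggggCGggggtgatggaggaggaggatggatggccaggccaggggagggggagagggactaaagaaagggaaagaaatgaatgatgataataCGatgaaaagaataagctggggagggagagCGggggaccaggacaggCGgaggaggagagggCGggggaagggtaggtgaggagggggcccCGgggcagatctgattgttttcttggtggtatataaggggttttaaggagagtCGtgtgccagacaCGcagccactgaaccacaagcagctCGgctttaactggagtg
Hoxa10, chr6:52240805-52241104, minus strand: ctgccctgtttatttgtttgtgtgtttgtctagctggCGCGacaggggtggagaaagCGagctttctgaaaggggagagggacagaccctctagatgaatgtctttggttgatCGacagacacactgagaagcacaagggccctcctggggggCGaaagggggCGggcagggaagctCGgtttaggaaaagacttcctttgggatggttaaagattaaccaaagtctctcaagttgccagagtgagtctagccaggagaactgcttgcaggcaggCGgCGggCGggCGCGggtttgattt
Myh4, chr11:67237562-67237861, plus strand: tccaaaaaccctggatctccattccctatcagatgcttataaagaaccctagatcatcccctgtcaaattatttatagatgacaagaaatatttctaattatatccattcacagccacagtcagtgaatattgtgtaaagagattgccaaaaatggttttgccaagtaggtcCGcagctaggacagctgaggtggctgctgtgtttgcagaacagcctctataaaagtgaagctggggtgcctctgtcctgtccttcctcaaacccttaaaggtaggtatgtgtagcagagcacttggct
The Olig2 window held 25 CG, that of Hoxa10 12, that of Neurog2 10 and that of Myh4 1. The 37.5 kb domain of Olig2, a factor of oligodendrocyte and motor neuron progenitors, was covered 100.0% by line B peaks and 0% by NPC peaks. The 21.5 kb domain of the proneural factor Neurog2 was covered 100.0% by both lists. The 36.6 kb domain of Hoxa10 was covered 0% by line B and 0.828% by NPC peaks. The 112.3 kb domain of Myh4, a fast skeletal muscle myosin, was covered 4.80% by line B and 55.3% by NPC peaks. These 4 loci thus showed 4 different combinations of sharing, at promoters with many CG and with few.

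The widths were skewed towards the limit. The median domain measured 14.8 kb, the quartiles were 11.9 and 20.9 kb, and the widest measured 166.4 kb. Above 20 kb there were 1537 domains, above 50 kb 150 and above 100 kb 12. Widths ran on without a break across the limit of 10000 bp. The 5 narrowest members measured from 10002 to 10006 bp and overlapped Prune2, Tbc1d16, Gdpd4 or, in 2 cases, no gene, and the 5 widest peaks left out measured from 9994 to 9999 bp and overlapped Tmc5, Atp2b4 or, in 3 cases, no gene. By the same width, line B had 4673 such peaks (93.5 Mb, the widest 201.5 kb) and NPC had 2316 (48.2 Mb, the widest 346.8 kb).

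The 10 widest domains held homeobox genes, membrane transporters, an ion channel gene and muscle myosins. The widest, at chr3:54180179-54346591, lay over Trpc4, which encodes a calcium-permeable cation channel. It was covered 69.5% by line B peaks, in 27 separate pieces, and 0% by NPC peaks. The next, of 162.8 kb at chr17:12472981-12635828, held the organic cation transporter genes Slc22a3 in part and Slc22a2 whole, and was covered 93.9% by line B and 49.8% by NPC peaks. The third spanned 151.5 kb at chr11:96159293-96310832 and held Hoxb5, Hoxb6, Hoxb7, Hoxb8, Hoxb9 and Hoxb13 whole, with parts of Hoxb3 and of Ttll6, a tubulin polyglutamylase gene. Line B peaks covered 94.0% of it and NPC peaks 32.7%. In NPC that coverage lay at the Ttll6 and Hoxb13 end of the domain, and the records of Hoxb6 and Hoxb8 were covered 0%, against 100.0% in line B.

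A domain of 125.4 kb over Slc24a2, a sodium, calcium and potassium exchanger of neurons and cone photoreceptors, was the fourth. Line B peaks covered 6.23% of it and NPC peaks 0%, so it was almost limited to the line A list. The fifth, of 119.3 kb at chr15:102846877-102966214, held Hoxc11, Hoxc12 and Hoxc13 whole, with 73.8% in line B and 68.3% in NPC. Nfasc, which encodes a neuronal adhesion protein of the axon initial segment, had a domain of 117.5 kb with 93.2% in line B and 16.1% in NPC. Six6, an eye and pituitary homeobox gene, lay with 1 predicted gene in a domain of 116.5 kb covered 92.9% and 16.8%. A domain of the same width, 116.5 kb at chr8:26442475-26558976, touched no gene, and the nearest record lay 278.3 kb away. It was covered 87.3% by line B and 35.5% by NPC peaks. The domain of Myh1, Myh4 and Myh8, adult and perinatal myosin heavy chains of skeletal muscle, was the next with 112.3 kb. That of the neuronal glutamate transporter gene Slc1a1 followed with 110.0 kb, 85.8% in line B and 2.33% in NPC. Over the 10 widest domains, line B coverage exceeded 69% in 8 and stayed under 7% at Slc24a2 and the myosin genes, while NPC coverage exceeded 50% at the Hoxc genes and the myosin genes only.

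**Figure D1:**
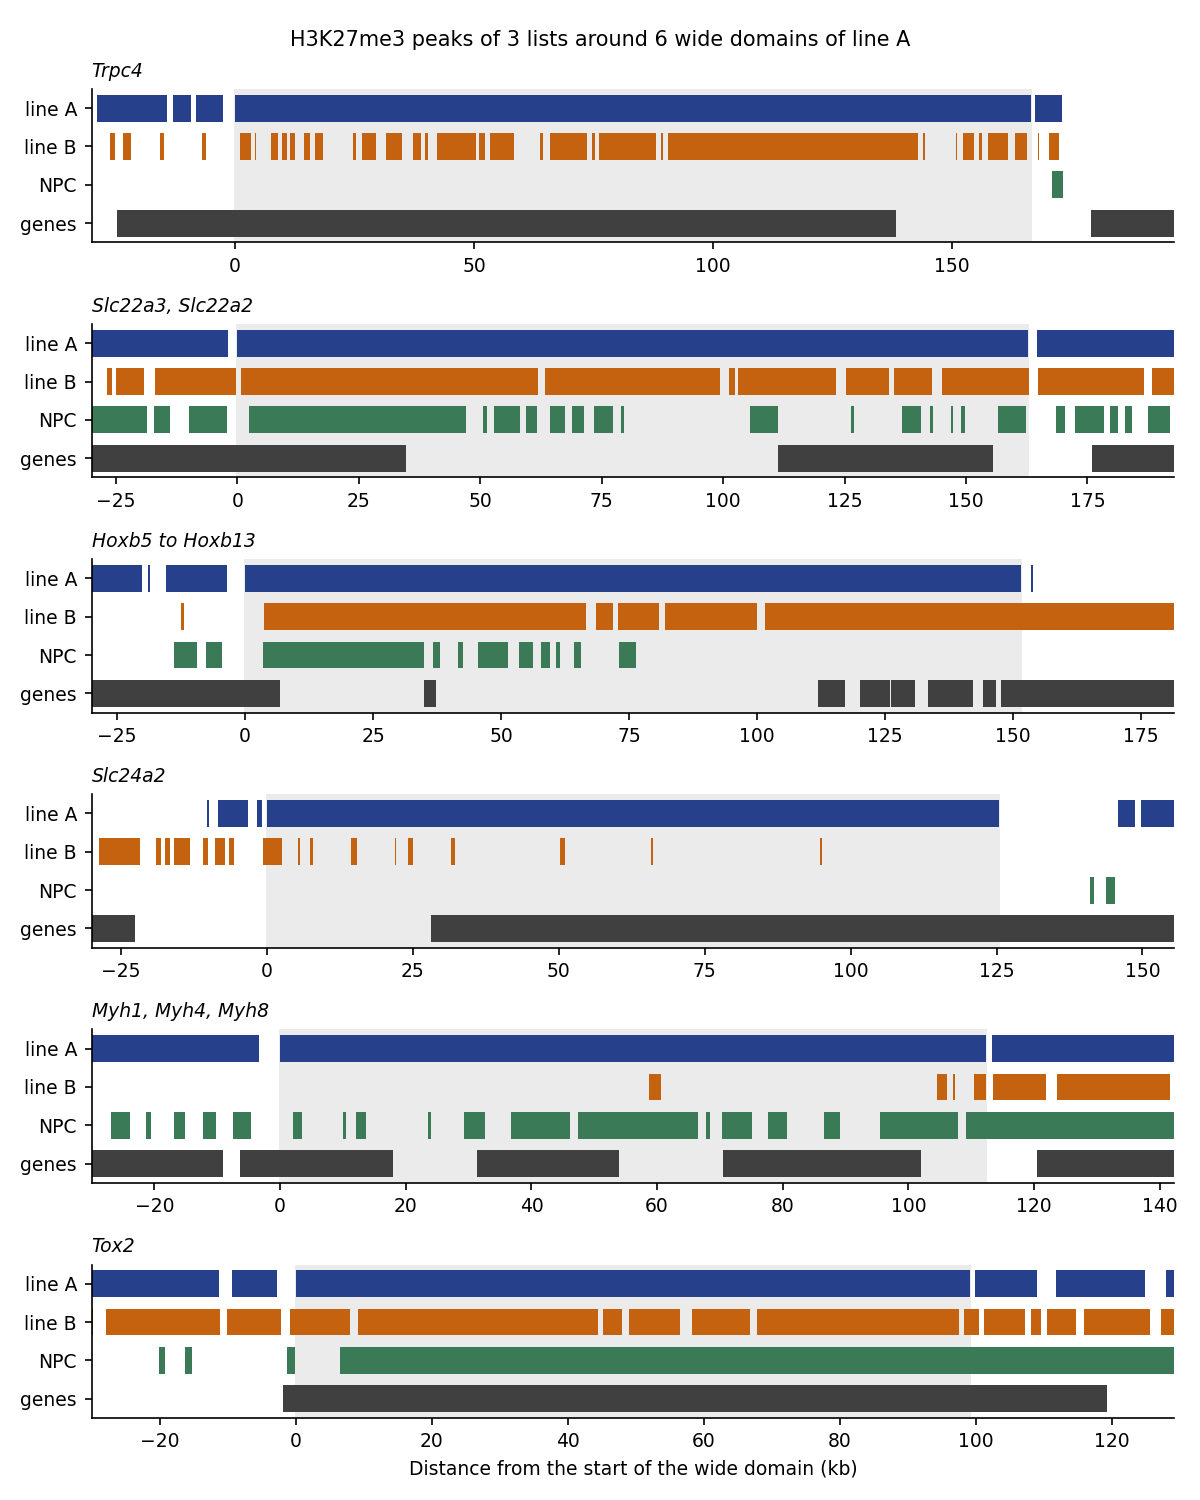
Peaks of the 3 lists around 6 wide domains of line A, with distance from the start of the domain in kb on the horizontal axis. Grey shading marks the domain, coloured blocks are peaks and dark blocks are protein-coding records, and line B peaks fill most of the Hoxb domain (94.0%) but little of the Slc24a2 (6.23%) and myosin (4.80%) domains.

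Genes were protein-coding records of RefSeq on GRCm38.p6, the assembly of mm10, which give a start and an end but no exons. Of 20665 autosomal records, 1961 (9.49%) overlapped a wide domain by at least 1 bp. With 50% of the record required the number was 964 (4.66%). A whole record lay in the domains for 367 genes (1.78%). A domain reached within 2 kb of a record end for 1776 genes (8.59%). The start itself lay in a domain for 888 of the 16457 genes with a promoter window (5.40%). The count of overlapped genes was thus mostly one of partial overlap.

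Longer records were overlapped more often. The median overlapped record measured 31.6 kb against 17.5 kb for all genes, and the share overlapped was 6.02% in the shortest 25% of records and 15.7% in the longest 25%. The share with the start in a domain moved less with length, from 5.19% to 6.37% between the same groups. Record length therefore moved with the overlap count, and its part in the gene lists below was not tested. The share of starts is given beside the overlap for that reason.

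Seen from the domains, 2704 (47.9%, 95% exact binomial interval 46.6 to 49.2%) touched no protein-coding record. A single record was touched by 2669 and 2 records by 244, and 29 domains touched 3 or more. Wholly inside a record lay 1596 domains (28.3%), whereas 321 (5.69%) contained at least 1 whole record and 1031 (18.3%) overlapped a record only in part. These shares were not computed for narrower line A peaks, so they are not shown to be particular to wide domains. With a width limit of 5 kb the share without a gene was 54.5%, and with 20 kb it was 39.3%. Intervals here cover counting error only, since neighbouring genes and domains are not independent. Domains without a gene lay a median of 40.4 kb from the nearest record (quartiles 12.8 and 100.2 kb), with 568 within 10 kb and 680 beyond 100 kb. The record table holds no enhancers or noncoding genes, so what these gene-free domains contain was not examined beyond miRNAs.

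Of the 5 domains with the most whole records, the Hoxb and Hoxc domains were 2. The others held adjacent genes of 1 family each. Olfr1410, Olfr1411, Olfr1412 and Olfr1413, olfactory receptor genes, lay whole in 44.2 kb at chr1:92568373-92612578, covered 100.0% by line B and 96.0% by NPC peaks. The serine protease genes Prss34, Prss28 and Prss29 lay in 57.6 kb at chr17:25289581-25347195, covered 100.0% and 70.1%. The type I interferon genes Ifna4, Ifna5 and Ifna6 lay in 20.5 kb at chr4:88824548-88845013, covered 100.0% by line B and 14.3% by NPC peaks.

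Developmental transcription factors were often overlapped, by 132 of the domains. In the 6 lists of such factors combined, 119 of 222 genes (53.6%, interval 46.8 to 60.3%) overlapped a wide domain, beside 9.49% of all genes. Their records were short, with a median of 5.50 kb, and 62 (27.9%) lay whole in domains, beside 1.78% of all genes. The start lay in a domain for 72 of the 150 with a promoter window (48.0%), beside 5.40%. By list this share was 31.8% for Hox genes, 57.4% for neural and sensory homeobox and POU factors and 40.0% for bHLH factors. It was 41.7% for the Pax to Gata families, 41.7% for forkhead and Sox factors and 66.7% for mesoderm, muscle and endoderm factors. The lists were drawn up with earlier results of these data known and with genes long known as Polycomb targets, so the counts describe them and are not independent evidence.

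Hox genes, which set position along the body axis, were overlapped in 18 of 39 cases (46.2%), by 6 domains in all 4 clusters. Hoxa9, Hoxa10, Hoxa11 and Hoxa13 shared 36.6 kb at chr6:52223641-52260242. This was the Hox domain that line B lacked, at 0%, while line B covered at least 50% of the other 5, beside 56.0% of all wide domains. Hoxb1 had a separate domain of 28.0 kb, covered 100.0% by line B and 0% by NPC peaks. Hoxd10 and Hoxd11 shared 12.3 kb (100.0% and 0%), and Hoxd13 shared 16.3 kb with the homeobox gene Evx2 (100.0% and 17.1%). Each of the 4 clusters thus had posterior genes in a domain, though not all those of the Hoxc and Hoxd clusters, and the Hoxb cluster also had anterior ones.

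Neural and sensory homeobox and POU factors, which specify neuron and sense organ types, had the highest share of all lists, 38 of 60 genes (63.3%). Lmx1a, of midbrain dopamine neurons and the roof plate, met 5 domains, the widest of 27.7 kb and covered 100.0% by line B and 68.7% by NPC peaks. Its relative Lmx1b had 54.2 kb, with 89.5% in line B and 0% in NPC. Lhx2, a forebrain and eye factor, lay whole in 83.7 kb with 88.8% and 12.9%. Lhx4, of pituitary and motor neurons, had 36.8 kb with 100.0% in both. Of the 42 domains of this list, line B covered at least 50% in 40 and NPC in 16, beside 56.0 and 21.4% of all wide domains. All but 2 of these domains thus reached 50% in the other fibroblast line.

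Proneural and neuronal bHLH factors, which drive progenitors into neurogenesis, were overlapped in 7 of 18 cases (38.9%), each with its whole record. Neurod2 lay in 24.8 kb with 100.0% in both lists, and Nhlh2 in 18.3 kb with 87.8% in line B and 8.35% in NPC. With Olig2 and Neurog2, shown above, the 7 domains were all covered at least 50% by line B, and 4 by NPC. Over all wide domains these shares were 56.0 and 21.4%. The Pax, sine oculis-related, Irx, T-box and Gata families had 18 of 36 genes (50%). Pax2, of kidney and midbrain, had 2 domains, the wider of 88.8 kb with 100.0% in line B and 84.4% in NPC. Pax5, the B cell identity factor, had 88.9 kb with 100.0% and 44.2%. Pax3, of neural crest and muscle precursors, met 4 domains, and the widest, of 42.8 kb, was covered 55.8% and 84.6%. At Gata4, a cardiac and endoderm factor, the 46.1 kb domain was covered 0% by line B and 54.1% by NPC peaks. At Pax3 and Gata4 the widest line A domain was therefore covered more by NPC peaks than by those of the other fibroblast line.

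Forkhead and Sox factors had 20 of 37 genes (54.1%). Foxa2, an endoderm and floor plate factor, lay in 97.4 kb with 79.0% in line B and 34.0% in NPC, and Foxa1 met 2 domains, the wider of 22.4 kb with 100.0% and 0%. Foxn4, of retina and spinal interneurons, had 21.4 kb with 67.6% and 86.6%. Sox6 differed from these in form: its record of 569.9 kb held 7 domains that filled 19.4% of it, and the widest, of 19.2 kb, was covered 0% by both other lists. Factors of mesoderm, muscle and endoderm had 18 of 32 genes (56.2%). The nuclear receptor gene Nr5a2 met 3 domains, the widest of 34.4 kb with 75% and 4.13%, and Hnf4a, of liver and gut, also 3, the widest of 27.3 kb with 33.6% and 23.1%. Prox1, of lymphatic endothelium and liver, had 27.3 kb with 26.9% and 0%, and Onecut3 had 30.3 kb with 100.0% and 93.8%. Line B coverage of these gut and liver genes thus ranged from low to complete.

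Secreted ligands of the Wnt, Fgf, Bmp and hedgehog families were overlapped in 16 of 54 cases (29.6%). The start lay in a domain in 7 of 39 (17.9%). Wnt3a had 2 domains, the wider of 44.0 kb with 97.6% in line B and 81.4% in NPC, and Wnt8b lay whole in 21.8 kb with 100.0% and 25.5%. Wnt9b had 29.4 kb with 54.2% and 62.4%, and Wnt7b 23.3 kb with 85.8% and 0%. NPC covered at least 50% of 13 of the 23 ligand domains, the largest such share among lists with 10 or more domains. Over all wide domains it was 21.4%.

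Genes of other lineages were overlapped to different degrees. Blood and immune genes had 12 of 29 (41.4%). Ikzf3, a lymphoid zinc finger factor, met 3 domains that filled 92.5% of its record, the widest of 50.3 kb with 81.7% in line B and 27.8% in NPC. Lmo2, of the first blood cells, had 22.5 kb with 100.0% and 42.0%, and Ptprc, which encodes the leukocyte surface phosphatase CD45, met 4 domains, the widest of 16.1 kb with 0% in both. Itgam, an integrin of myeloid cells, had 16.6 kb with 3.57% and 64.3%. Of epithelial genes, 1 of 18 (5.56%) had a start in a domain. Only 4 of 30 (13.3%, interval 3.76 to 30.7%) were overlapped, which is near the share of all genes. They were the splicing regulator gene Esrp1 (24.2 kb, 98.8% and 46.8%), Ovol2 (20.8 kb, 64.8% and 34.0%), Ovol1 (17.2 kb, 49.0% and 41.8%) and, over 0.400% of its record, Grhl2.

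Genes that fibroblasts are known to use were not among the overlapped ones. Of 32 fibroblast and mesenchymal genes, such as Col1a1, Col1a2, Acta2 and Cd44, 0 overlapped a wide domain, which allows a share of up to 9.38%, just under the 9.49% of all genes, while the exact interval reaches 10.9%. Of 26 housekeeping genes, Actb, B2m, Chmp2a and Eef1a1 among them, 0 overlapped one (up to 11.5%). Of 29 genes for Polycomb subunits 0 overlapped one (up to 10.3%). None of the 7 cell cycle inhibitor genes, Cdkn1a, Cdkn1b, Cdkn1c and Cdkn2a among them, overlapped one, and with 7 genes that allows up to 42.9%. The lists are short, so these counts of 0 do not set them apart from all genes at this size. The label fibroblast could not be checked further, since peak positions hold no expression.

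**Figure D2:**
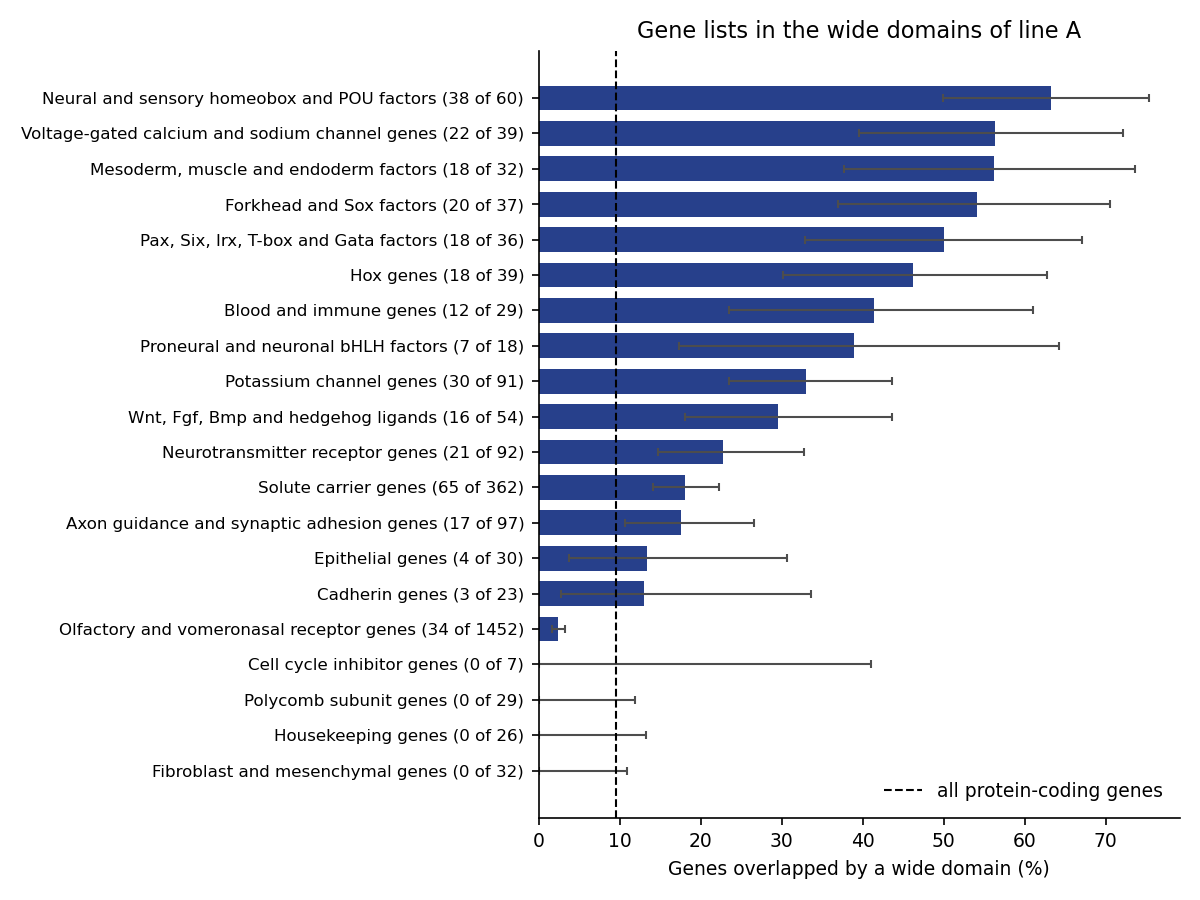
Share of each of 20 gene lists overlapped by a wide domain (horizontal axis, percent of genes on autosomes), with exact 95% binomial intervals as error bars and the share of all genes, 9.49%, as a dashed line. Neural homeobox genes reach 63.3%, and 4 lists, among them the fibroblast and housekeeping genes, have no member in a domain.

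Ion channels, receptors and transporters of excitable cells formed the other large group. Voltage-gated calcium and sodium channel genes were overlapped in 22 of 39 cases (56.4%), with a median record of 110.5 kb. The start lay in a domain in 4 of 29 (13.8%), and a domain reached within 2 kb of an end in 9 (23.1%). Cacna1d, a pore subunit of L-type calcium channels, met 10 domains that together filled 52.8% of its 451.2 kb. The widest of them, 57.7 kb, was covered 94.2% by line B and 20.2% by NPC peaks. Cacna1b and Cacna1a, pore subunits of presynaptic calcium channels, met 3 and 5 domains, the widest of 47.3 kb (59.6% and 0%) and 31.2 kb (90.9% and 0%). Cacna2d4, an auxiliary subunit gene of the retina, met 3, the widest of 34.9 kb with 100.0% and 5.28%. These 4 genes showed chains of domains in the gene body, the widest of each covered at least 50% by line B and under 50% by NPC.

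Potassium channel genes were overlapped in 30 of 91 cases (33.0%), with a start in a domain in 17.9%. Kcnq1, a cardiac and epithelial channel gene in an imprinted region of chromosome 7, met 7 domains over 50.4% of its record, the widest of 57.5 kb with 37.3% in line B and 74.8% in NPC. Kcnn3, a calcium-activated channel, met 6 over 69.4% of its record, the widest of 27.5 kb with 93.7% and 100.0%. The neuronal channel genes Kcnh7 and Kcnd2 met 4 and 2, with 0% in both lists at the widest of Kcnh7 (31.6 kb) and 61.9% and 0% at that of Kcnd2 (50.9 kb). Neurotransmitter receptor genes had 21 of 92 (22.8%), with a start in a domain in 7 of 67 (10.4%). The muscarinic receptor gene Chrm2 met 7 domains over 65.8% of its record, the widest of 30 kb with 96.4% and 29.2%. The glutamate receptor genes Grm4 and Grik4 had domains of up to 42.1 kb (77.9% and 18.7%) and 15.9 kb (91.7% and 6.82%). At the serotonin receptor gene Htr4 the widest domain, of 14.8 kb, was covered 0% by line B and 98.5% by NPC peaks, the reverse of Grik4.

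Axon guidance and synaptic adhesion genes had 17 of 97 (17.5%), with a median record of 108.2 kb. Their start lay in a domain in 8 of 78 (10.3%), beside 13.8% for the calcium and sodium channel genes. Slit1, a repellent of axons, met 5 domains over 55.3% of its record, the widest of 26.1 kb with 98.3% and 95.4%. Nrxn2 and Ntng2, synaptic adhesion genes, had domains of up to 33.5 kb (68.7% and 0%) and 52.9 kb (91.0% and 20.1%). Cadherin genes had 3 of 23 (13.0%), Cdh23, Cdh22 and Cdh4, near the share of all genes, and with at least 50% of the record required they had 0. A cadherin gene start lay in a domain in 1 of 13 (7.69%). Solute carrier genes, transporters of ions and metabolites, had 65 of 362 (18.0%), with a start in a domain in 32 of 282 (11.3%). Slc24a2 met 5 domains over 86.3% of its record, and Slc22a3 2 over 97.8%. Slc35f3 and Slc24a3 met 8 and 7 domains, the widest of 31.4 kb (100.0% and 0%) and 24.1 kb (0% and 7.46%). Olfactory and vomeronasal receptor genes were the large family below the share of all genes, with 34 of 1452 (2.34%). Their start lay in a domain in 25 of 1254 (1.99%). Where they were met, as at Olfr1414, Olfr286, Olfr288 and the vomeronasal gene Vmn2r82, the domain held all of the record at the first 3 and 68.7% of it at Vmn2r82.

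The promoter windows allowed a comparison of CG content, which width did not use. Genes that started in a wide domain had a median of 8 CG in the 300 bases, and 27.7% of the 888 had 20 or more. Genes that started outside had a median of 14, and 37.9% of 15569 had 20 or more, beside 37.4% of all genes. The listed transcription factors differed from the rest: the 72 that started in a domain had a median of 17.0 CG, with 41.7% at 20 or more, against 8 for the 816 other genes with a start in a domain. All 150 listed factors with a window also had a median of 17.0, the same as for those in domains. Genes that started in narrower line A peaks had a median of 6. Genes that started in a domain had quartiles of 4 and 21 CG, and the Olig2 and Myh4 windows printed above, with 25 and 1, lie outside them. Among listed factors in domains the third quartile was 26, above the count of Olig2.

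Hairpins of miRNAs, short RNAs that silence transcripts, overlapped the domains in 37 of 919 cases (4.03%). The share of gene starts was 5.40%, and whether hairpins differ from them was not tested. The 9.49% of gene records is not a like comparison, because records are far longer than hairpins and longer records were overlapped more often. The following are shown as examples chosen after their values were seen, with 2 of them sharing a seed. Capitals mark the seed, bases 2 to 8.
miR-196a-5p, Mir196a-1, chr11:96265164-96265265: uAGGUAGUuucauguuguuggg
miR-196b-5p, Mir196b, chr6:52230081-52230165: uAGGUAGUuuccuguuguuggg
miR-9-5p, Mir9-1, chr3:88215598-88215686: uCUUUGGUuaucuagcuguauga
miR-208b-3p, Mir208b, chr14:54975700-54975776: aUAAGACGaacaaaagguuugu
miR-490-3p, Mir490, chr6:36421742-36421825: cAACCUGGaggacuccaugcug
The miR-196 pair has the same seed, AGGUAGU, and lay in different Hox domains. That of Mir196a-1 was the 151.5 kb Hoxb domain, covered 94.0% by line B, and that of Mir196b the 36.6 kb Hoxa domain, covered 0%. The neuronal miR-9 came from 2 domains without a protein-coding gene, of 37.5 kb at Mir9-1 (98.0% in line B, 25.3% in NPC) and of 22.7 kb at Mir9-3 (85.1% and 0%), with an identical mature sequence. Mir208b lay in the 18.7 kb domain of Myh6 and Myh7, the cardiac myosin genes, covered 100.0% by line B and 0% by NPC peaks. Mir490 lay in the 30 kb domain of Chrm2. Some of the domains counted as gene-free above thus held a miRNA gene.

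Many domains lay near another, but their spacing was not compared with that of narrower line A peaks or of the other lists. Between neighbours there were 5627 gaps with a median of 32.6 kb and quartiles of 7.34 and 217.1 kb, the smallest 773 bp and the largest 20 Mb. Of the gaps, 868 (15.4%) were up to 3 kb, 1661 (29.5%) up to 10 kb and 3744 (66.5%) up to 100 kb. Joining neighbours up to 10 kb apart gave 1029 runs that held 2690 domains (47.6%), with at most 12 domains in 1 run. Such runs would read as single wider domains if the peaks were joined over short gaps.

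The longest run spanned 496.7 kb at chr8:26182041-26678783. Its 8 domains, the gene-free one of 116.5 kb among them, overlapped no protein-coding record, and 79.7% of the run was covered by line B and 20.2% by NPC peaks. The next, of 312.2 kb at chr11:96414641-96726800, had 7 domains over Skap1, a T cell adaptor gene beside the Hoxb cluster, with 88.7% in line B and 0.559% in NPC. The third, of 301.9 kb on chromosome 17, had 4 domains and overlapped the plasminogen gene Plg and the transporter genes Slc22a3 and Slc22a2, with 89.3% and 52.8%. These 3 runs were thus mostly filled in line B but differed in NPC.

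At the other extreme, 102 domains lay more than 1 Mb from any other. The farthest were the 11.5 kb domain of Lhx8, a factor of forebrain cholinergic neurons, 11664.2 kb from the next, that of Pou4f1, a sensory neuron factor (10.8 kb wide, 10542.0 kb away), and a gene-free one of 11.9 kb on chromosome 14 (7435.9 kb away). Line B covered 13.8% of the Lhx8 domain and 100.0% of the other 2, and NPC covered 0, 41.2 and 12.7%.

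What filled the gaps changed with their width. Narrower line A peaks covered 1.65% of the gaps up to 3 kb, 32.8% of those of 3 to 10 kb and 47.2% of those of 10 to 50 kb. They covered 37.0% of those of 50 to 100 kb and 6.31% of those above. No gap was below 773 bp, so gaps up to 3 kb had little room for a separate narrower peak. Their low value was therefore largely set in advance. Line B peaks covered 32.4% of the gaps up to 3 kb and 33.0% of those of 10 to 50 kb, against 56.3% of the length of the domains themselves and 6.97% of the gaps above 100 kb. For NPC the same values were 11.9, 13.0, 24.2 and 4.63%. Gaps from 3 to 50 kb were thus covered more by each kind of peak than gaps above 100 kb, and line B covered them less than the domains. Gene starts numbered 8.67 per Mb in domains. In gaps they numbered 10.0 per Mb up to 3 kb (12 starts), 4.83 from 3 to 10 kb, 7.47 from 10 to 50 kb, 9.27 from 50 to 100 kb and 6.91 above, with no steady trend.

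**Figure D3:**
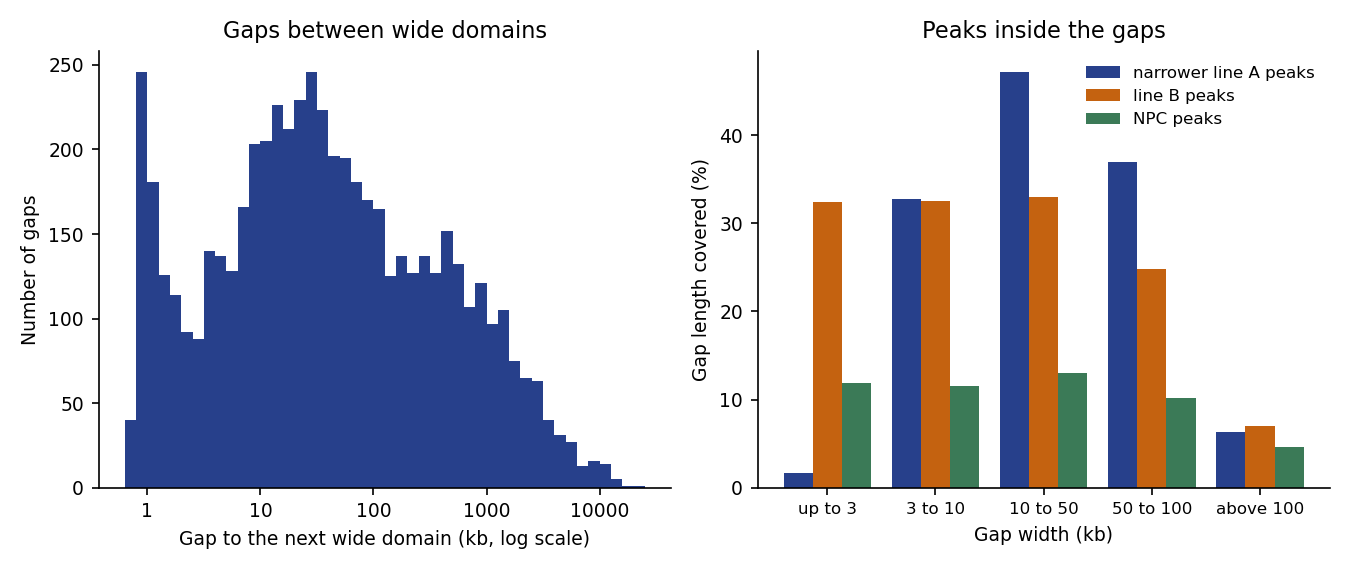
Left, number of gaps between neighbouring wide domains by gap width (kb, log scale); right, percent of gap length covered by narrower line A peaks, line B peaks and NPC peaks in 5 classes of gap width. The median gap is 32.6 kb, and line B coverage stays between 24.8 and 33.0% in gaps up to 100 kb and is 6.97% above.

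Line B peaks covered a median of 61.5% of a domain, with quartiles of 10.6 and 92.2%. At least 50% was covered in 3160 domains (56.0%, interval 54.7 to 57.3%), beside 35.0% of all line A peaks and 33.5% of those up to 10 kb. At least 90% was covered in 1584 (28.1%), beside 23.8% of all and 23.5% of the narrower, and 954 (16.9%) were not touched, beside 52.5 and 54.9%. NPC peaks covered a median of 6.81%, with quartiles of 0 and 42.3%. At least 50% was covered in 1210 domains (21.4%, interval 20.4 to 22.5%), beside 14.3% of all line A peaks and 13.8% of the narrower ones. At least 90% was covered in 381 (6.75%), below the 8.71% of all and 8.85% of the narrower peaks, and NPC left 2426 domains (43.0%) untouched, beside 76.1 and 78.4%. A wide peak offers more length to touch, and shares past 50 or 90% can also move with width, which was not tested.

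Line B coverage was higher in wider classes of line A peaks. At least 50% was covered in 27% of the peaks up to 1 kb, 53.2% of those of 10 to 20 kb, 62.1% of those of 20 to 50 kb and 74.7% of the 150 above 50 kb. For NPC the shares were 11.2, 21.0, 23.4 and 14.7%, so the widest class was below the 2 classes before it. Without chromosome 7 the line B shares were 28.1, 55.0, 63.5 and 76.0%, and those of NPC 9.87, 19, 22.0 and 13.7%. The same order therefore stood without that chromosome.

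A domain could match a wide peak or several narrow ones. Line B peaks above 10 kb met 2300 domains (40.7%), and NPC peaks of that width met 805 (14.3%). Conversely, 2202 of the wide line B peaks (47.1%) and 731 of the wide NPC peaks (31.6%) met a wide line A domain. In 1794 domains there was exactly 1 line B peak and in 2898 there were 2 or more, and for NPC the numbers were 1503 and 1717. Among domains touched, the outermost line B edge lay within 1 kb of the domain edge in 37.9% of cases, and the NPC edge in 22.2%. Sharing of a domain was thus often by several peaks, and its edges differed by more than 1 kb in most cases.

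**Figure D4:**
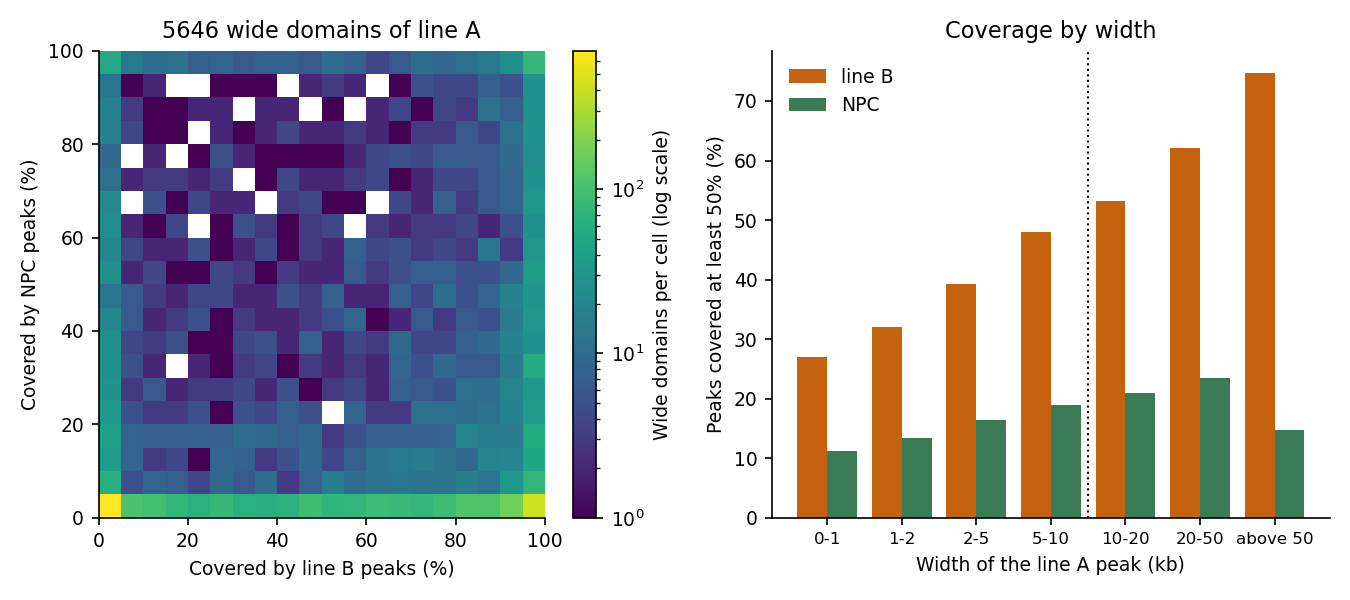
Left, wide domains by percent covered by line B (horizontal) and NPC peaks (vertical), with the number per cell on a log colour scale; right, percent of line A peaks covered at least 50% by each list in 7 classes of width, with the 10 kb limit dotted. The crowded corners are those with NPC near 0, and the line B share reaches 74.7% above 50 kb.

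With both lists considered, 765 domains (13.5%) were covered at least 50% by both, 2395 (42.4%) by line B alone, 445 (7.88%) by NPC alone and 2041 (36.1%) by neither. Taken singly, line B and NPC reached 50% in 56.0 and 21.4% of wide domains, and in 35.0 and 14.3% of all line A peaks. Joint shares were not computed for all or narrower line A peaks, here or for the classes that follow. The joint classes are therefore not shown to be particular to wide domains. At least 90% in both was found in 135 domains. The widest were Tox2, an HMG-box gene (99.2 kb, 93.5% in both), Cbfa2t3, a transcriptional corepressor gene (53.3 kb), the Olfr1410 to Olfr1413 domain, Prdm12, a factor of pain-sensing neurons (42.9 kb), and a gene-free domain of 41.1 kb on chromosome 8, which followed that of Cbfa2t3 after 1.62 kb. These 5 domains were thus marked nearly whole in all 3 lists.

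Neither list touched 519 domains (9.19%). The widest lay over Slc24a2 (61.0 kb, apart from its 125.4 kb domain), Sh3gl2, a gene of synaptic vesicle endocytosis (46.6 kb), and Sdk2, a retinal adhesion gene (41.0 kb), and 2 had no gene (43.5 kb on chromosome 10 and 42.3 kb on chromosome 2). Line B covered at least 90% and NPC 0 in 508 domains. The widest were 2 of Zswim5 (82.3 and 63.0 kb), that of Skap1 (80.6 kb) and 2 without a gene (85.5 kb on chromosome 2 and 65.3 kb on chromosome 3). In the opposite class, with NPC at least 50% and line B under 10%, there were 244. These were led by the myosin domain and those of Gata4, Pkhd1l1 (44.6 kb, NPC 88.0%), Dlx5 with Dlx6 (44.1 kb, NPC 96.8%) and St8sia6 (43.1 kb, NPC 50.5%). Dlx5 and Dlx6 are homeobox genes of limb, jaw and forebrain, and line B had no peak in their domain.

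Coverage also differed with what a domain contained. The 132 domains that overlapped a listed transcription factor had a median line B coverage of 94.3% and NPC coverage of 18.7%, with at least 50% covered in 77.3 and 32.6% of them. The 2704 domains without a gene had medians of 52.9 and 5.37%, and 51.3 and 19.6% of them reached 50%. Domains wholly inside a gene that is not a listed factor, 1576 in number, had medians of 52.4 and 0%. The remaining 1234, which held or partly overlapped other genes, had medians of 80.6 and 19.1%, with 70.2 and 28.8% at 50% or more. Their NPC median was thus like that of the factors. Domains of the factors were also wider, with a median of 21.5 kb against 14.2 kb without a gene. Among domains of 10 to 20 kb alone, the line B medians were 95.4% for the 59 of factors and 50.9% for the 2100 without a gene. Line B covered at least 50% in 71.2 and 50.3% of them. It left 20.3 and 20.2% of them untouched, against 13.6 and 18.1% over all widths. The part of width in these differences was not tested. The NPC medians at 10 to 20 kb were 8.35 and 4.38%, closer together than over all widths.

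Chromosome 7 stood apart from the other autosomes. Its 300 domains had a median line B coverage of 12.3% and NPC coverage of 56.2%. On the other chromosomes the medians ranged from 49.1% (chromosome 1) to 80% (chromosome 9) for line B and from 0 to 24.0% (chromosome 6) for NPC. Line B exceeded NPC in 18 of 19 chromosomes, all but chromosome 7. Of the 244 domains covered at least 50% by NPC and under 10% by line B, 60 lay there. Narrower line A peaks on chromosome 7 were likewise covered 14.0% on average by line B and 38.1% by NPC, so the difference was not limited to wide domains. Wide domains had a higher mean coverage than narrower peaks in 19 of 19 chromosomes for line B, and in 19 of 19 for NPC. Without chromosome 7 the median domain was covered 64.5% by line B and 5.74% by NPC. Kcnq1, Itgam and Sox6, named above, lie on chromosome 7, as does Mir9-3, whose domain went the other way with 85.1% in line B and 0% in NPC. The cause of the difference on chromosome 7 was not tested.

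**Figure D5:**
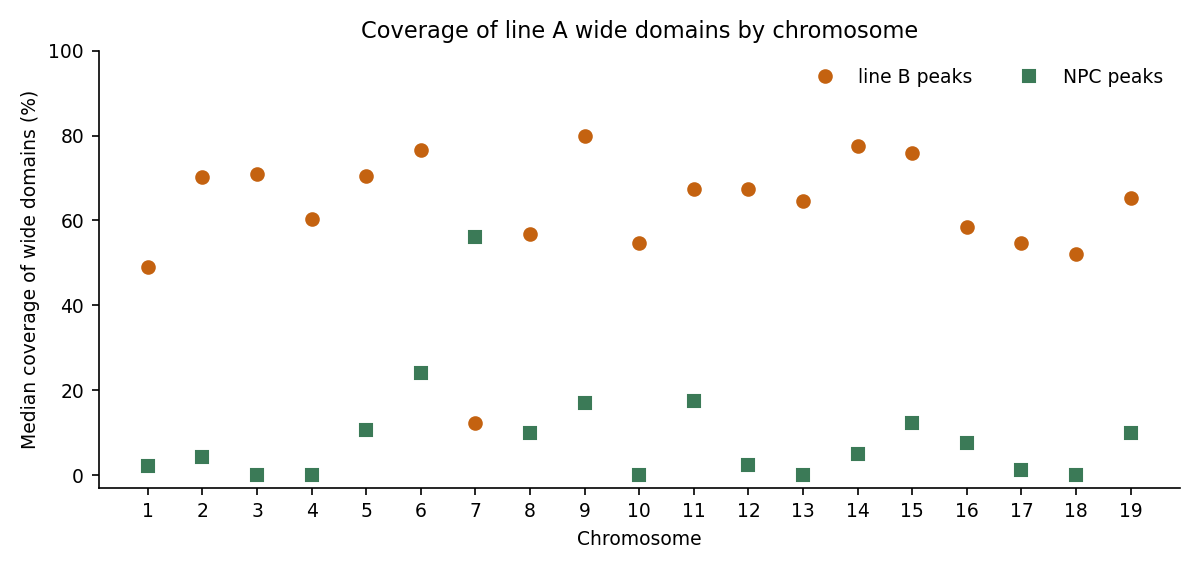
Median percent of a wide domain covered by line B peaks (circles) and NPC peaks (squares) on each of the 19 autosomes. Chromosome 7, at 12.3 and 56.2%, is the one where the order is reversed.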

How the data were processed

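H3K27me3 was measured by ChIP-seq in 12 fibroblast libraries and by CUT&RUN in 6 NPC libraries, per the labels' protocols. The authors deposited 3 peak lists of 3 columns each, the chromosome, start and end of every peak, with no score, fold, p-value or header. Per the submitters' processing notes, MACS2 2.1.1.20160309, Bowtie2 2.2.9, deepTools, DESeq2 and Picard were used, with the mm10 and dm6 builds, and no role is given for any of them. Peak threshold, control and pooling of libraries are likewise not given in these sources. Pooling, threshold and the smallest joined gap set how wide a peak is, so they bear on which peaks exceed 10000 bp. Starts were read as 0-based and are printed 1-based.

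Peaks were compared by covered length with Python 3.11.15, numpy 2.4.6, pandas 2.3.3 and scipy 1.17.1, and figures drawn with matplotlib 3.10.9. The coverage code was tested on simulated intervals. A gene was counted with 1 bp or more of its record in a domain. Genes were the 20665 autosomal of 21900 protein-coding records of RefSeq GRCm38.p6. Promoter windows were held for 16457 genes on 18 autosomes, and 1 window per gene was used. Shares carry exact (Clopper-Pearson) 95% intervals, and a count of 0 has a limit of 3 counts. A domain was taken as shared where 50% was covered.

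The members, the 20 gene lists and the rules were chosen with earlier results of these data known. Of the list symbols not found on autosomes, 1 is another name of Prrxl1 and the others are X-linked. Genes named were those of the 10 widest domains, up to 4 per list with most domain length within 5 kb of the record, and the 5 domains with most whole records. The 5 widest of each sharing class, the 3 longest runs, the 3 most isolated domains and the 5 peaks on each side of the limit were also named. Predicted genes were counted and not named. The Hox genes beyond that rule, the miRNAs and the choice of 4 promoters to print were made after their values were seen. A few genes chosen this way are not reported here.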

Additional observations from a re-analysis of the deposited data

How the results depend on the processing

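With a limit of 5 kb there were 15077 domains (61.8% of line A peak length), which overlapped 15.8% of genes and 65.8% of listed transcription factors. Of them 54.5% had no gene, the median gap was 12 kb, line B covered a median of 52.3% with 51.0% shared, and NPC covered 0% with 19.9% shared. With a limit of 20 kb these values were 1537 domains, 17.8%, 4.13%, 36.5%, 39.3%, 179.7 kb, 70.3% and 63.4% for line B and a median of 10.8% for NPC, and the median promoter had 11 CG. With peaks less than 3 kb apart joined first they were 9061 domains, 75.4%, 17.1%, 65.8%, 49.5%, 26 kb, 37.9% and 42.8% for line B, 3.54% and 14.0% for NPC, and 7 CG. Joining counts the gaps as part of a domain. Without chromosome 7, 9.98% of genes were overlapped, line B covered a median of 64.5% with 57.7% shared, and NPC 5.74% with 19.6% shared. With 50% of the record required, 4.66% of genes and 45.0% of listed factors counted, and with a domain within 2 kb of an end 8.59% of genes. Sharing by 1 bp or more gave 83.1% for line B and 57% for NPC, and by at least 90% gave 28.1% and 6.75%. The limit thus sets the number, spacing and gene share by construction. Under each of these settings for width, joining, chromosome 7 and gene counting, 15 of 20 lists lay above the share of all genes, except that with 50% of the record required it was 14, without the cadherin genes. Taking for each gene the window with the most CG, an alternative chosen after seeing the data, gave a median of 10.0 CG in domains and 15.0 outside. No paired analysis was possible because the lists are not per sample, and for the same reason no library could be left out. Depth is unknown, so what it limits could not be given.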
